A study of Mus musculus with 3 samples.

Results

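The replication-dependent histone genes encode the bulk histones H1, H2A, H2B, H3 and H4 that package newly made DNA. Here they were taken as every protein-coding gene of the GENCODE vM1 annotation on mm9 whose symbol begins with Hist1h, Hist2h, Hist3h or Hist4h, which gave 67 of 22342 protein-coding genes. They comprised 6 genes for the linker histone H1, 19 for H2A, 18 for H2B, 11 for H3 and 13 for H4. On chromosome 13 there were 55 of them, on chromosome 3 there were 9 (the Hist2 cluster), on chromosome 11 there were 2 (Hist3), and Hist4h4 stood alone on chromosome 6.

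These genes are transcribed mainly in S phase, when the cell needs histones for its duplicated genome. Most have no introns, sit in tight clusters, and make the only metazoan mRNAs that normally lack a poly(A) tail: the transcript ends just after a short stem-loop, which SLBP binds and the U7 snRNP helps to cleave. Histone variants such as H2A.Z come from genes elsewhere and enter chromatin outside replication, so H2A.Z at these promoters is a variant histone over the genes for its canonical relatives.

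ChIP-Seq regions were examined in 3 libraries from mouse ESCs, 1 per group. In the H2A.ZWT library, an ESC line carried wild-type H2A.Z fused to YFP. In the H2A.ZAP3 library, the H2A.Z-YFP fusion carried G92N, D97N and S98K, which put the residues of canonical H2A into the acidic patch, a charged surface of the nucleosome. Both lines derived from KH2 ESCs, and a CMV promoter under a drug-inducible system drove the transgene after 1 µg/ml doxycycline. Cells positive for YFP were collected by sorting, endogenous H2A.Z was depleted with hairpins against its 3′ UTR, and anti-GFP was used for the precipitation. The library for H3K27me3 has the genotype label WT and was precipitated with an antibody to H3K27me3, the mark that Polycomb repressive complex places on repressed genes. All 3 libraries have the strain label V6.5 (129SvJaexC57BL/6), and the cells were grown with LIF and without feeder cells for the final passage. The lists held 78359 H2A.ZWT, 14599 H2A.ZAP3 and 16970 H3K27me3 regions at a threshold of 1e-9, and the read depth behind them is unknown. A gene was called where at least 1 bp of a region lay within 1 kb of its annotated start. With 1 library per group there is no replicate error and no test between conditions, and the 95% Wilson intervals cover counting error only.

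The sequence that sets these genes apart lies just after the stop codon. The stem-loop, searched by its consensus (GG, then CTT, T and AG, then CC, with any base at the positions between) on the sense strand within 150 bases after the stop codon, was found in 60 of the 67 histone genes (89.6%) and in only 6 other protein-coding genes (66 of 22342, 0.295%, histone genes included). The lines below show it for genes with and without H2A.ZWT, 5′ to 3′ on the sense strand as in the mm9 genome, with the stem-loop in capitals.
Hist1h1t, with H2A.ZWT (chr13:23788394-23788409, plus strand): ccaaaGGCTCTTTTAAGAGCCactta
Hist1h2ba, with H2A.ZWT (chr13:24025599-24025614, minus strand): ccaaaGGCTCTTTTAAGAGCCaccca
Hist3h2a, with H2A.ZWT (chr11:58768674-58768689, plus strand): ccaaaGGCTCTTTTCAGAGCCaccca
Hist1h1b, without (chr13:21871706-21871721, minus strand): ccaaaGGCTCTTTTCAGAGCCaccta
Hist1h4c, without (chr13:23789958-23789973, minus strand): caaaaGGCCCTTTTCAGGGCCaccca
Hist1h4j, without (chr13:21827306-21827321, plus strand): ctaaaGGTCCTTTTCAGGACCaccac
The coordinates cover the capitals. There were 8 distinct stem-loops among the 60 genes, and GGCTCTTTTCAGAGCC alone served 36 of them. The stem differed by class. All 47 stem-loops of H1, H2A, H2B and H3 genes began GGCTC, whereas the 13 of the H4 genes began GGCCC or GGTCC, with the matching change in the other arm. The letters were not found in this window for Hist2h2be, Hist2h2bb, Hist1h2an, Hist1h2bp, Hist1h2bq, Hist1h2br and Hist1h2al.

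The promoters also shared letters by class, searched on both strands from 250 bases before to 50 after the start. The TATA box TATAAA was present in 38 of the 67 (56.7%), against 13.4% of all protein-coding genes. In Hist2h2be, Hist1h2bn, Hist1h2bp, Hist1h2bk, Hist1h2bc, Hist1h2bf and Hist1h2ae it lay on the opposite strand only, at the TATA box of the gene beside them. The count of 38 therefore includes shared sites. CCAAT was present in 57 (85.1%, against 37.9%), that is, in every H1, H2A and H2B gene, in 10 of 11 H3 genes and in 4 of 13 H4 genes. The octamer ATTTGCAT, the site read by OCT1 and OCT4, was found in 8 of 18 H2B genes and 7 of 19 H2A genes, against 1.72% of all genes. It was found in no H1, H3 or H4 gene. The octamers of Hist2h2ac, Hist1h2ah, Hist1h2ae, Hist1h2ac and Hist1h2aa are the same sites as those of the H2B genes beside them. Most of the H2A count is therefore the H2B sites counted again. The H1 box AAACACA was found in 5 of 6 H1 genes and in 10 of the 67 (14.9%, against 6.43%). The octamer is shown for H2B genes with and without H2A.ZWT, in capitals on the strand of the gene.
Hist2h2be, with H2A.ZWT (chr3:96024996-96025003, plus strand): tttgagacctaATTTGCATaaggcgttcat
Hist1h2ba, with H2A.ZWT (chr13:24026182-24026189, minus strand): gaattccccttATTTGCATgcacccagcac
Hist1h2bk, without (chr13:22127660-22127667, plus strand): catttcactttATTTGCATacgaagttcta
Hist1h2bg, without (chr13:23663210-23663217, plus strand): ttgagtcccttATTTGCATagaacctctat
A match is a description of the letters and not of binding.

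H2A.ZWT was called at few histone genes. A region lay within 1 kb of the start in 10 of the 67 (14.9%, 95% interval 8.31 to 25.3), whereas 55.9% of all protein-coding genes had one. H2A.ZAP3 was called at 0 of the 67, which allows a share of up to 4.48% (Wilson upper bound 5.42%), against 18.7% of all genes. H3K27me3 was called at 2 of the 67 (2.99%, 0.822 to 10.2), against 14.5%. The other 57 histone genes had no region of any of the 3 libraries in the window. Neighbouring windows overlap and join into 40 loci, so the 67 genes are not independent and these limits and intervals are too narrow.

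**Figure D1:**
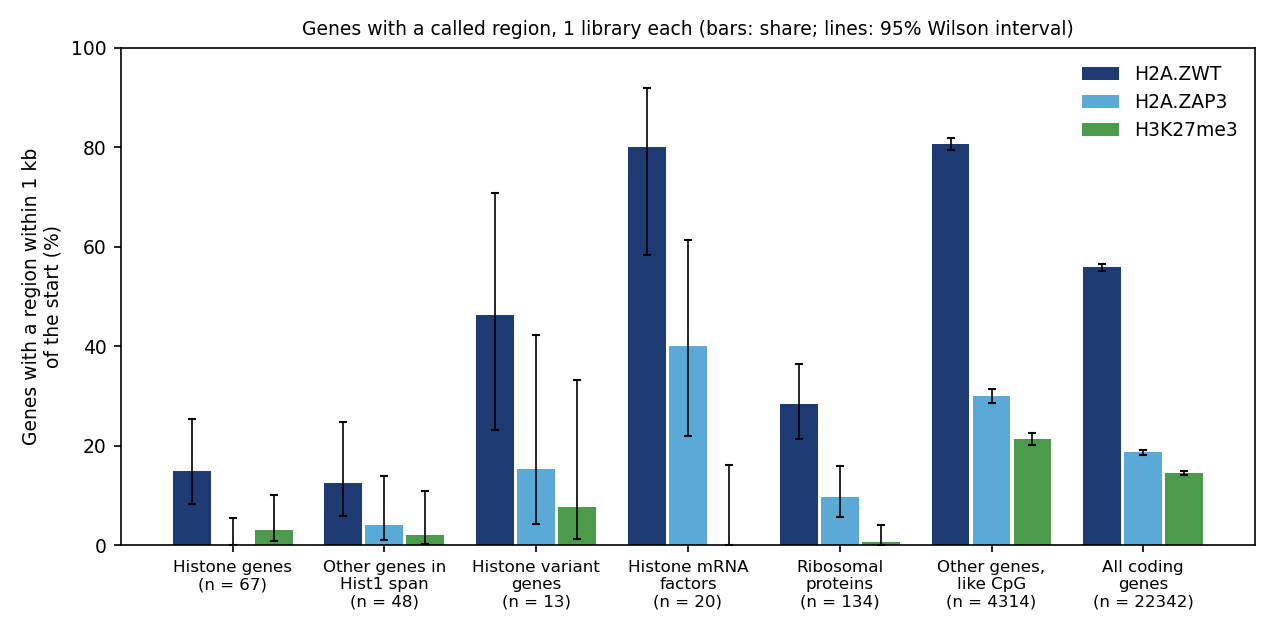
The y axis gives the percentage of genes with a region within 1 kb of the start, for the histone genes and 6 other gene lists on the x axis, in the H2A.ZWT, H2A.ZAP3 and H3K27me3 libraries; lines are 95% Wilson intervals, 1 library each. The histone genes stand at 14.9% for H2A.ZWT, beside 80.7% of other genes of like CpG count and 55.9% of all coding genes, and their H2A.ZAP3 bar is at 0.

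The distance from the start to the nearest H2A.ZWT region had a median of 25473 bp over the histone genes (quartiles 8386 and 59407.5 bp), against 345 bp over all protein-coding genes. These values include the called genes and so largely follow the called share. Among genes with no H2A.ZWT region within 1 kb the difference was smaller, with a distance over 10 kb for 44 of 57 histone genes (77.2%) and 68% of 9862 genes in all, and medians of 36767 and 22363 bp. The farthest was Hist1h2bn, at 95117 bp, and among the nearest were Hist2h2ab at 1287 bp and Hist1h4c at 2073 bp. The nearest that an H2A.ZAP3 region came to any of the 67 starts was 4737 bp, at Hist1h2bl. The median distance to one was 46006 bp, against 36324 bp over all protein-coding genes. For H3K27me3 that median was 121203 bp, against 93802 bp. Neighbouring histone genes share these distances, since they sit side by side.

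By class, H2A.ZWT was called at 1 of 6 H1 genes, 5 of 19 H2A genes, 3 of 18 H2B genes, 1 of 11 H3 genes and 0 of 13 H4 genes, a count of 0 that allows up to 23.1%. The intervals of these classes overlap, at 3.01% to 56.4% for H1, 11.8% to 48.8% for H2A, 5.84% to 39.2% for H2B and 1.62% to 37.7% for H3. Every class share lay below the 55.9% of all genes, although for H1 the interval reaches it. The calls also varied with the place in the genome. Sub-clusters were defined wherever neighbouring histone genes on chromosome 13 were more than 100 kb apart, which gave A to D, and a lone gene, Hist1h2al, far along the chromosome. In sub-clusters A, B and C, which hold 52 of the genes, 1 had H2A.ZWT, and outside chromosome 13 it was 6 of 12.

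The 5 H1 genes with no H2A.ZWT region, Hist1h1a to Hist1h1e, encode the somatic linker histones. The exception, Hist1h1t, encodes the linker histone of spermatocytes. Its window held 450 bp of H2A.ZWT and 0 bp of the other libraries, as 1 region at chr13:23787801-23788250 in its exon, from 121 to 570 bp after the start. Within sub-cluster C, Hist1h1t stood between Hist1h2bc and Hist1h4c, whose starts were 11733 and 2073 bp from the nearest H2A.ZWT region.

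The pair Hist1h2ba and Hist1h2aa, the whole of sub-cluster D, encode the testis forms TH2B and TH2A. They are transcribed away from each other from starts 306 bp apart. Each had 1000 bp of H2A.ZWT in its window, the most of any histone gene, 0 bp of H2A.ZAP3 and 75 bp of H3K27me3. The H2A.ZWT lay in the same 2 regions for both genes. One, of 575 bp at chr13:24025351-24025925, began 100 bp after the start of Hist1h2ba and ended 674 bp after it. In the gene lay 289 bp of this region, and the rest lay past the gene end, across the stem-loop and beyond it. The other, of 425 bp at chr13:24026276-24026700, ran from 55 bp before to 369 bp after the start of Hist1h2aa. Between the starts, where the shared octamer lies, 56 bp were covered. The only H3K27me3 region at any histone gene, at chr13:24026676-24026750 with 45 of its 75 bp in Hist1h2aa, overlapped the end of the second region. It was absent from the 1e-12 list. So all 3 genes of sub-clusters A to D with H2A.ZWT are genes known for their expression in testis, a grouping made after their values were seen and given no test.

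**Figure D2:**
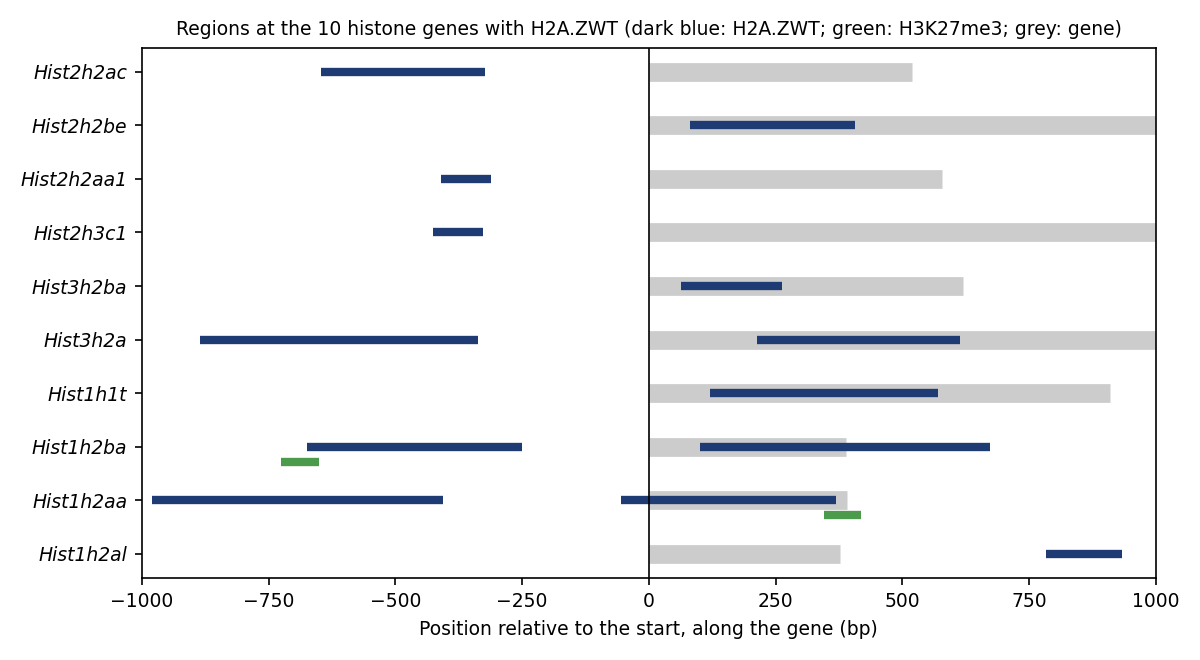
The x axis is the position in bp along the gene from its annotated start (0), and each row is 1 of the 10 histone genes with H2A.ZWT; dark blue bars are H2A.ZWT regions, the thin green bars the H3K27me3 region, and grey bars the annotated gene. The start itself is covered at Hist1h2aa alone, and H2A.ZAP3 has no bar because none of its regions fell in these windows.

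The Hist2 cluster carried H2A.ZWT at 4 of its 9 genes, through 2 regions. Hist2h2ac (H2A) and Hist2h2be (H2B) form a divergent pair with starts 241 bp apart, and each had 325 bp of H2A.ZWT and 0 bp of the other libraries. This was 1 region, chr3:96025126-96025450, in the exon of Hist2h2be, at +82 to +406 from its start and so at -647 to -323 from that of Hist2h2ac. Hist2h2aa1 (H2A) and Hist2h3c1 (H3) each had 100 bp, again a single region, chr3:96049051-96049150, lying outside genes at -410 to -311 from the start of Hist2h2aa1. The annotated start of Hist2h3c1 lies 16 bp from that of Hist2h2aa1 and 1197 bp from its own start codon, and with windows drawn around start codons Hist2h3c1 had no region. The region at the Hist2h2aa1 start was absent from the 1e-12 list. Of the 5 Hist2 genes without a call, Hist2h2ab was nearest to an H2A.ZWT region, at 1287 bp. Hist2h2aa2, Hist2h2bb, Hist2h3b and Hist2h4 were 4835, 8007, 9074 and 14417 bp away.

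Both Hist3 genes had H2A.ZWT. Hist3h2a had 950 bp, in a region of 550 bp at -886 to -337 from its start (chr11:58767301-58767850, outside genes) and one of 400 bp at +214 to +613 (chr11:58768401-58768800, in an exon shared by Hist3h2a and Trim17). The latter was absent from the 1e-12 list, where 175 bp remained in the window of Hist3h2a. Hist3h2ba had 200 bp, from 63 to 262 bp after its start (chr11:58762476-58762675, in its exon). Neither had H2A.ZAP3 or H3K27me3, whose nearest regions were 5564 and 4064 bp from Hist3h2a. Hist4h4, the single Hist4 gene, had none of the 3, and its start lay 8200 bp from H2A.ZWT. The lone Hist1h2al had 150 bp of H2A.ZWT at chr13:51297501-51297650, past the end of the gene and 784 to 933 bp after its start, which was absent from the 1e-12 list.

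The length covered varied widely among the 10 histone genes with H2A.ZWT, from 100 bp of the window at Hist2h2aa1 and Hist2h3c1 to 1000 bp at Hist1h2ba and Hist1h2aa. The median was 325 bp, against 575 bp over all genes with H2A.ZWT, but over the called histone genes with at least 80% single-copy words it was 700 bp, against 575 bp for other genes at that cutoff. The 10 calls rest on 9 regions, because close neighbours share them. The 25-bp bin covered most often was centred 237.5 bp after the start, in 6 histone genes (8.96%), and over all genes it was centred 187.5 bp after the start (35.9%). Of all genes with H2A.ZWT, 31.3% also had H2A.ZAP3, and of the 10 histone genes 0 did. That 0 allows up to 30%, with a Wilson upper bound of 27.8%, both just under 31.3%, and the 10 genes are not independent because they share regions.

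**Figure D3:**
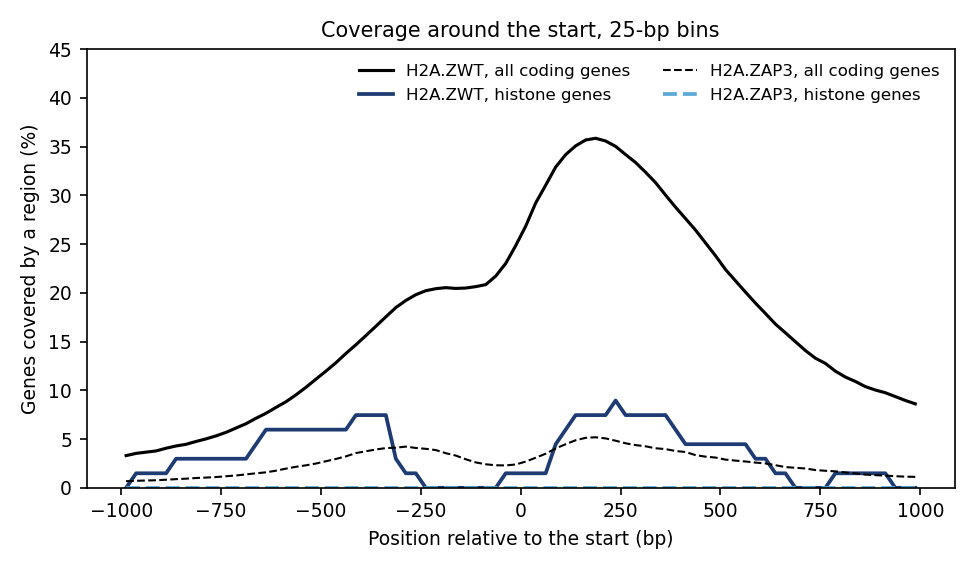
The x axis is the position in bp from the annotated start and the y axis the percentage of genes covered by a region in each 25-bp bin; solid lines are H2A.ZWT and dashed lines H2A.ZAP3, black for all 22342 coding genes and blue for the 67 histone genes. The histone gene line for H2A.ZWT peaks at 8.96% where the line of all genes stands near its own peak of 35.9%, and the H2A.ZAP3 line of the histone genes lies on 0.

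Along chromosome 13 H2A.ZWT regions were fewer per Mb among the tightly packed histone genes than between those runs. The Hist1 cluster without Hist1h2al spans 2.22 Mb (chr13:21807632-24026720) with 54 histone genes, and H2A.ZWT covered 0.755% of it in 50 regions, against 0.757% of the whole chromosome and 1.07% of the 19 autosomes and X. H2A.ZAP3 covered 0.0867% in 15 regions and H3K27me3 0.441% in 19. Within the cluster those regions lay mostly between the sub-clusters, where 1.85 of its 2.22 Mb also lies. Sub-clusters A to D together, 364781 bp, held 4 H2A.ZWT regions (11 per Mb, 0.415% covered), and the 1.85 Mb between them held 46 (24.8 per Mb, 0.822%). H2A.ZAP3 had 1 region in the sub-clusters and 14 between them (2.74 and 7.55 per Mb). H3K27me3 had 2 and 17 (5.48 and 9.17 per Mb). The raw counts follow the unequal lengths in large part. Counts this small were given no test.

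Sub-cluster A, 121768 bp with 18 histone genes, held no region of any library. It lies inside a stretch of 215 kb (chr13:21750876-21965925) with no H2A.ZWT region. One H2A.ZAP3 region fell in that stretch, outside the sub-cluster and 4737 bp from Hist1h2bl. Sub-cluster B, 8564 bp with 5 genes, also held none, with H2A.ZWT regions 8812 bp from Hist1h2ah and 7968 bp from Hist1h2bj on either side. Sub-cluster C, 233365 bp with 29 genes, held 2 H2A.ZWT regions, at Hist1h1t and at Hfe, the iron regulator mutated in haemochromatosis, which lies among these genes but is no histone gene. Hfe also held the only H2A.ZAP3 region there, and the H3K27me3 region in C, of 100 bp, lay 2930 bp from Hist1h1e. A stretch of 181 kb that begins before C and reaches into it (chr13:23606751-23787800) had no H2A.ZWT region and took in 19 histone gene starts, Hist1h1t among them because its region begins 121 bp after the start. Such stretches were not confined to histone genes: the longest within the cluster, of 498 kb, held 0 histone genes and 10 other starts.

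**Figure D4:**
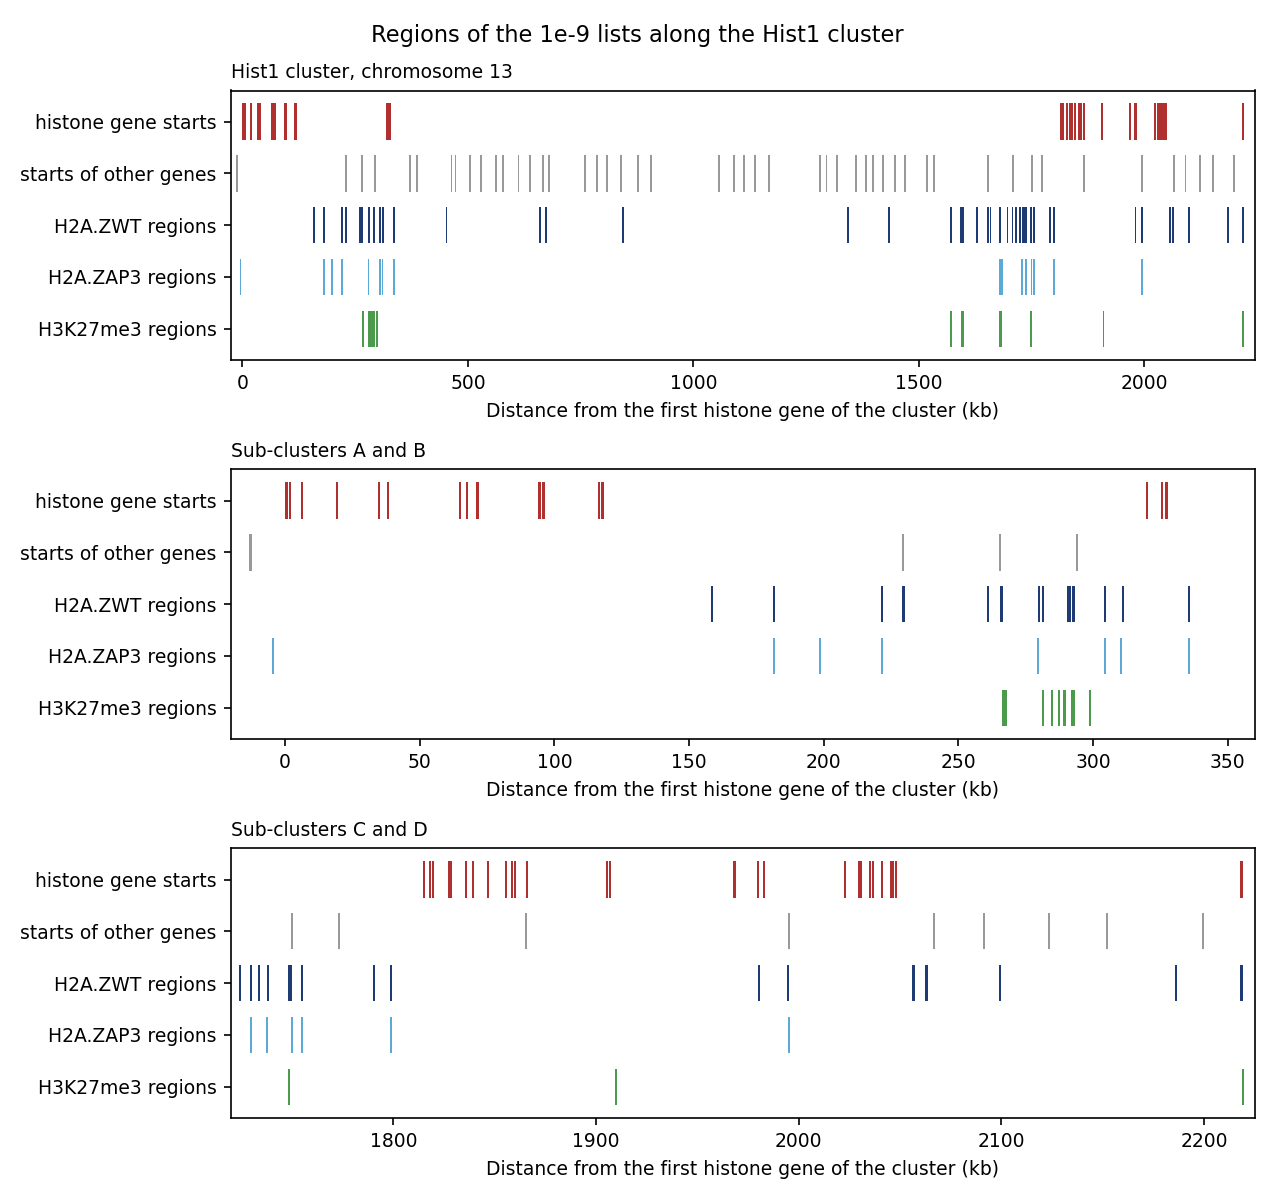
The x axis is the distance in kb from the first histone gene of the Hist1 cluster, for the whole cluster (top), sub-clusters A and B (middle) and C and D (bottom); rows mark histone gene starts, starts of other coding genes and the regions of each library. Marks are drawn at a fixed minimum width so that short regions stay visible. Dark blue marks of H2A.ZWT are missing under the histone genes of A and B, are 2 in C and 2 in D, and gather in between.

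The other protein-coding genes inside the Hist1 span had H2A.ZWT at 6 of 48 (12.5%, 5.86 to 24.7). Their starts were unlike those of the histone genes, with a median of 5 CpG dinucleotides within 500 bp against 62. These 48 genes were of different kinds. The vomeronasal receptor genes, which encode pheromone receptors of sensory neurons, had 0 of 33, which allows up to 9.09%. Of the remaining 15, 6 had H2A.ZWT (40%, 19.8 to 64.3), at 1100 bp for Zfp184, 1050 bp for Pom121l2, 625 bp for Zfp322a, 450 bp for Abt1, 375 bp for Btn1a1 and 350 bp for Hfe. H2A.ZAP3 was present at Btn1a1 (125 bp) and Hfe (150 bp), and H3K27me3 at Pom121l2 (438 bp).

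Most genes with CpG-rich starts carry H2A.ZWT in this list, and the histone genes have such starts. They held a median of 62 CpG dinucleotides within 500 bp of the start, against 41 over all genes. Among other genes inside the histone genes' middle range of CpG count (52.5 to 74), 80.7% had H2A.ZWT, 30% had H2A.ZAP3 and 21.3% had H3K27me3. Of the 33 histone genes in that range, 4 had H2A.ZWT (12.1%, 4.82 to 27.3) and 0 had either of the others. The 10 genes with H2A.ZWT held a median of 58.5 CpG and the 57 without it 63. The octamer was present in 5 of the 10 and in 10 of the 57, and the TATA box in 7 and 31. These counts take matches on either strand. Hist2h2ac and Hist2h2be share the same octamer, as do Hist1h2ba and Hist1h2aa, so the genes are not independent.

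Histone genes resemble each other in sequence, so many short reads from them match several places. How the study's alignment treated such reads is not given in the sources used here. As a measure of this, a word of 32 bases was counted as single-copy where it occurs once in the genome on either strand, and a median of 74.8% of the words in a histone gene window were single-copy, against 98.4% over all genes. The 6 genes Hist1h2bq, Hist1h2ao, Hist1h4m, Hist1h4n, Hist1h2ap and Hist1h2br, an inverted pair of copies in sub-cluster A, had at most 4.26%, so their lack of a region says little. Among the 27 histone genes with at least 80% single-copy words, 6 had H2A.ZWT (22.2%, 10.6 to 40.8), against 63.1% of 19311 other genes. With the CpG range added it was 2 of 13 histone genes (15.4%, 4.33 to 42.2) against 82% of 4180 others. Between 50 and 80% and in the same CpG range it was 2 of 18 (11.1%, 3.1 to 32.8) against 58.6% of 70 others. Under 50% the order was the other way, at 2 of 9 histone genes (22.2%, 6.32 to 54.7), Hist2h2aa1 and Hist2h3c1 with their shared region, against 3.41% of 1465 others. No CpG range was set there, and the median CpG count was 89 for those histone genes and 8 for the others. These classes are broad and do not match the genes in value: at 80% and above the median share of single-copy words was 89.0% for the histone genes and 99.1% for the others, and with the CpG range added 85.1% and 99.4%. Among other genes the H2A.ZWT share rose with the share of single-copy words, at 3.41% under 50%, 15.5% at 50 to 80% and 63.1% above. Their median CpG count was 8, 8 and 48 in that order. The parts of CpG count and of single-copy words in that rise were not tested. H2A.ZAP3 was called at 0 of the 27 histone genes with at least 80% single-copy words, which allows up to 11.1%, against 21.3% of the other genes. With the CpG range added its 0 of 13 allows up to 23.1%, against 30.5%. The part of single-copy words in the calls at single histone genes was not tested.

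Several histone genes had windows made up almost wholly of single-copy words and no H2A.ZWT region. Of the 6 histone genes with at least 95% single-copy words, 1 had H2A.ZWT (16.7%, 3.01 to 56.4). That interval takes in the 55.9% of all genes, but these include genes with fewer single-copy words. Among other genes with at least 80% single-copy words the share was 63.1%, above the interval. The share of other genes at 95% was not computed, so these 6 genes have no like comparison. Hist1h1a had 99.9% single-copy words, Hist1h1b 98.7%, Hist2h4 98.1% and Hist4h4 95.4%, and Hist1h1c, Hist1h4c, Hist1h4d and Hist1h1e had 90.3 to 91.3%. Hist1h2be had 98.9%, but its annotated start lies 35168 bp from its start codon. Among the genes with H2A.ZWT the share ran from 40.5% at Hist2h3c1 to 100% at Hist1h1t. The flank before the start was the more distinct side, with a median of 82.4% against 66.7% after it. In 28 genes at least 90% of the words before the start were single-copy, and 4 of these had H2A.ZWT. After the start, where H2A.ZWT coverage was highest, this held for 9 genes, and 4 of those 9 had H2A.ZWT. The share of all genes at this limit was not computed for either side. Without the limit it was 55.9%, and 9 genes are too few to be told apart from it.

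**Figure D5:**
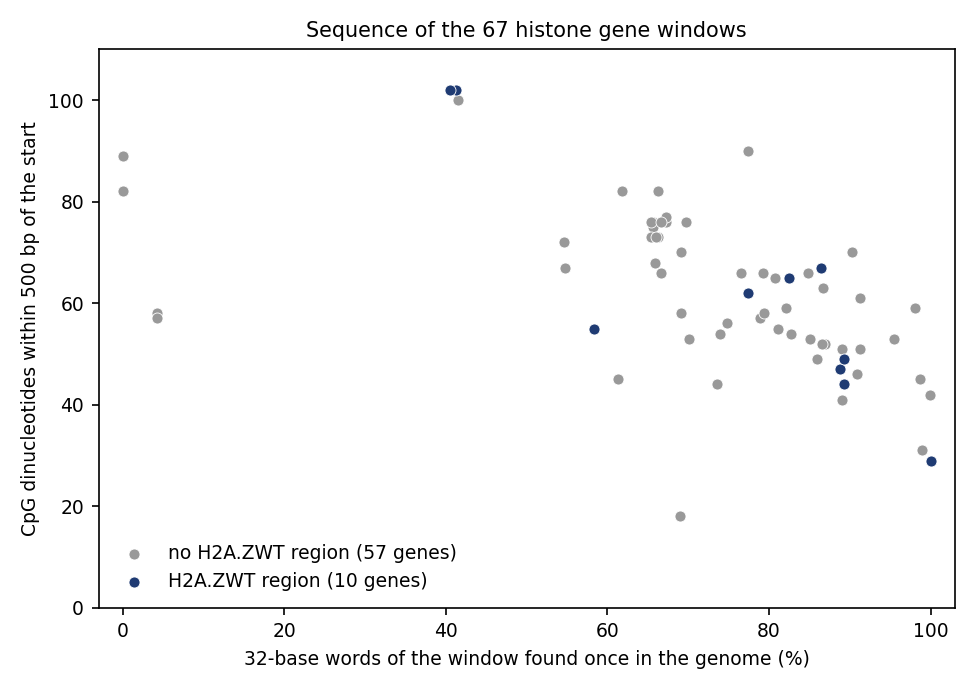
The x axis is the percentage of 32-base words in the 1 kb each side of the start that occur once in the genome and the y axis the CpG count within 500 bp; each point is 1 of the 67 histone genes, dark blue for the 10 with an H2A.ZWT region and grey for the 57 without. Blue points run from 40.5% to 100% and grey points fill the same range, with Hist1h1a, Hist1h1b, Hist2h4 and Hist4h4 grey on the far right.

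Many histone genes stood head to head, with 13 divergent pairs among the 67, 12 of them H2A with H2B, and starts 168 to 693 bp apart (median 241 bp). H2A.ZWT fell in the windows of 2 pairs, Hist2h2ac with Hist2h2be and Hist1h2ba with Hist1h2aa, and between the starts of the latter alone. The 4 H2B genes whose octamers are printed above all belong to such pairs.

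A list of 20 histone mRNA and transcription factor genes also took in cell cycle genes such as Cdk2. Among them H2A.ZWT was called at 16 (80%, 58.4 to 91.9) and H2A.ZAP3 at 8 (40%). H3K27me3 was called at 0, which allows up to 15%. These genes have CpG-rich starts, with a median count of 86. Among other genes with a CpG count of 52.5 to 74 the shares were 80.7%, 30% and 21.3% in that order. The H2A.ZWT share is thus near that of CpG-rich genes in general. Npat, the cyclin E/CDK2 substrate that switches on histone genes, had 700 bp of H2A.ZWT and 175 bp of H2A.ZAP3. Lsm11 and Lsm10, of the U7 snRNP, had 900 and 325 bp of H2A.ZWT and 175 and 50 bp of H2A.ZAP3. For Cpsf3, the endonuclease that cuts the transcript, these values were 1025 and 25 bp, and for its scaffold Sympk 825 and 200 bp. Mblac1, a nuclease linked to histone RNA processing, had 975 and 275 bp. Cdk2 had 525 and 150 bp and E2f1, a driver of S phase genes, 200 and 175 bp. Slbp itself, Zfp473, Yy1 and Cstf2 had no region of any library, although 98.3% of the words at Slbp were single-copy.

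Of the 13 genes for histone variants that matched, 6 had H2A.ZWT (46.2%), with a wide interval of 23.2 to 70.9. It takes in the 55.9% of all genes. It also overlaps the intervals of the histone genes and of the histone mRNA and transcription factor genes. The linker histone gene H1fx had 1676 bp of H2A.ZWT and 1276 bp of H2A.ZAP3. H2afy2, for a macroH2A, had 906, 425 and 320 bp in the H2A.ZWT, H2A.ZAP3 and H3K27me3 libraries. H1fnt and H1foo, germline linker histones, had 963 and 700 bp of H2A.ZWT, H2afy had 100 bp and H2afz, which encodes H2A.Z, 75 bp. H3f3a, H3f3b, H2afx, H2afj, H2afv, Cenpa and H2afb1 had none. Cytosolic ribosomal protein genes, another family of abundant transcripts with many copies in the genome, had H2A.ZWT at 38 of 134 (28.4%, 21.4 to 36.5), H2A.ZAP3 at 13 (9.7%) and H3K27me3 at 1. With at least 80% single-copy words it was 32 of 90 (35.6%, 26.4 to 45.8). The interval of the histone genes at that cutoff, 10.6% to 40.8%, overlaps this one, so the lists do not separate the families there.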

How the data were processed

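The authors sequenced ChIP-Seq libraries single-end on an Illumina GAII, aligned reads to mm9 with Bowtie 0.12.3 allowing 2 mismatches, extended them to 200 bp, counted them in 25-bp bins and kept bins passing a Poisson threshold of 1e-9 and 5-fold over input. The deposited lists, at 1e-9 and at 1e-12, hold starts and ends of regions for each library, with no height, score or p-value. The methods name the former only, which gave the main values. For H3K27me3 the labels and methods name different antibodies, and the methods also take such peaks from earlier work. Depth is unknown, and the ESC label could not be checked from region lists.

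Overlaps of at least 1 bp with the 1 kb each side of the annotated start (GENCODE vM1, mm9) were counted with Python 3.11.15 and NumPy 2.4.6. The members and lists were chosen with earlier results of these data known. Named were all members with a region, those outside chromosome 13, and from other lists those with H2A.ZAP3 or H3K27me3 or without H2A.ZWT. The planned span, first to last histone gene on chromosome 13, took in the lone Hist1h2al and came to 29.5 Mb, so the text describes the 2.22 Mb cluster and its sub-clusters, a choice made after seeing the data. So were windows around start codons, the limits on single-copy words alone and with CpG count, and the naming of uncalled members by single-copy share and of genes in other lists with H2A.ZWT alone. Counting was tested on simulated regions with known overlaps. With 1 library per group no test was made, and 0 counts carry the limit that 3 counts would give. No value was derived from the input or aligned reads, which were not analysed here.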

Additional observations from a re-analysis of the deposited data

Results flagged for a closer look

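In the 1e-12 lists, used in the report only to say whether a region was kept, 7 of the 15 H2A.ZAP3 regions inside the Hist1 cluster shared no base with the 1e-9 list of the same library, although the stricter threshold would be expected to keep a part of the looser list. They were singled out because they appear outside the main measurement. One of them, of 25 bp, lay in sub-cluster C, 460 bp from the start of Hfe, and 4 lay wholly within H2A.ZWT regions of the 1e-9 list. For H2A.ZWT it was 3 of 42 regions and for H3K27me3 0 of 16. None lay within 1 kb of a histone gene start.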

How the results depend on the processing

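H2A.ZAP3 was called at 0 of the histone genes under every alternative run. Over all genes its share was 15.4% to 21.3% in the settings where that was computed. H2A.ZWT was called at 7 to 11 genes instead of 10 under the 1e-12 list, the union of both lists, windows of 500 bp and 2 kb (which added Hist2h2ab), at least 50 bp covered, region midpoints, any annotated start, the nearest gene only, joined windows (7 of 40 loci), leaving out chromosome 6 and start codons. With at least 80% single-copy words it was 6, of 27 genes. Over all genes the H2A.ZWT share was 52.6% to 58.9% in the settings where that was computed. At 1e-12 it went from 55.9% to 54.4% over all genes and from 14.9% to 10.4% over the histone genes. H3K27me3, and with it the count of H2A.ZWT genes that also have H3K27me3, went from 2 to 0 at 1e-12, since its single region is absent there, and to 1 with 500 bp, with the nearest gene only and with joined windows. Over all genes the H3K27me3 share went from 14.5% to 12.6% at 1e-12 and to 11% with 500 bp. The share of the planned span (first to last gene on chromosome 13) covered was 0.871% for H2A.ZWT, 0.0923% for H2A.ZAP3 and 0.439% for H3K27me3. It came to 0.653%, 0.0648% and 0.341% at 1e-12, to 1.08%, 0.115% and 0.616% with regions joined across 1 kb, and to 0.415%, 0.0411% and 0.0397% in the sub-clusters only. With the union of both lists it was 0.898% and 0.106%, and without Hist1h2al 0.755% and 0.0867%, for H2A.ZWT and H2A.ZAP3. The cause of these shifts beyond the changed lists and spans was not tested. No paired analysis was possible because each group has 1 library. The unknown depth, the handling of reads with several matches and the lack of replicates limit all counts. An uncalled window is not shown to lack H2A.Z.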
